A study of Mus musculus with 36 samples.

Results

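The immediate early response genes of the liver were followed here through 6 time points of the day in mice kept under chronic intermittent hypoxia (IH) or under normoxia (control). The group was fixed by name as 10 genes, Fos, Fosb, Jun, Junb, Jund, Egr1, Ier2, Ier3, Klf6 and Atf3, and all 10 were found among 24066 genes with a symbol on a single row. All mice were wild-type male C57BL/6JRj, 16 weeks old, with free access to chow under 12 h of light and 12 h of dark, and their livers were snap-frozen. IH mice had lived for 4 weeks with 60 cycles per hour between a nadir of 5% and a peak of 21% inspired oxygen, from ZT0 (lights on) to ZT8 of each day, while control mice received matched air-to-air cycles. Livers were taken at ZT0, ZT4, ZT8, ZT12, ZT16 and ZT20 from 3 mice per time point and condition, which gave 18 IH and 18 control poly(A) RNA libraries. Each library is a different mouse, so a time course here joins separate animals and not repeated samples of the same animal. Levels are in FPKM, fragments scaled for gene length and for sequencing depth.

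Immediate early response genes are transcribed within minutes of a signal, from factors that are already present in the cell and without new protein synthesis, and their transcripts are short-lived. Growth factors, cytokines, stress and cAMP reach them through MAP kinases and protein kinase A, which act on SRF with its ternary complex factors and on CREB at their promoters. In liver they are known for their quick rise in the priming phase of regeneration after tissue loss, in the acute phase response and in the response to feeding and fasting hormones. Fos, FosB, Jun, JunB, JunD and ATF3 are basic leucine zipper proteins that pair with each other as AP-1 and related dimers. EGR1 and KLF6 are zinc finger factors, IER2 is a nuclear protein with transcriptional roles, and IER3 is a short-lived regulator of survival and ERK signalling.

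The genes lie on 8 of the autosomes, and all 10 are annotated as protein-coding in GENCODE vM21 on GRCm38, the assembly that mm10 names. In the AP-1 group, Fos is on the plus strand at chr12:85473890-85477273, Fosb on the minus strand at chr7:19302696-19310051, Jun on the minus strand at chr4:95049034-95052222, Junb on the minus strand at chr8:84974484-84978718 and Jund on the plus strand at chr8:70698949-70700616. Jun, Jund and Ier2 are annotated with 1 exon, whereas Fos has up to 4 exons. Among the others, Ier2 is on the minus strand at chr8:84661331-84662852, Ier3 on the plus strand at chr17:35821684-35822923, Klf6 on the plus strand at chr13:5861482-5870394 and Atf3 on the minus strand at chr1:191170296-191218039. Junb overlaps Prdx2 on the opposite strand, Jun and Jund each overlap an antisense transcript, and Atf3 overlaps Gm24748, annotated as misc_RNA, on the opposite strand. The kit kept the strand, but whether the quantification used it is not given in the sources used here, so part of these 4 levels could stem from the partner gene.

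Promoter sequence from RefSeq (GRCm38.p6) was held for 8 of the 10 genes, all but Egr1 and Ier2, and was read for short motifs. Whether these motifs relate to the levels of the genes was not tested. The search covered 250 bases before the RefSeq start on both strands. For Jund and Atf3 this start was not that of the GENCODE gene given above. The Jund window ended at chr8:70697738, upstream of the GENCODE start at 70698949. The Atf3 window lay inside the GENCODE gene, whose minus-strand start is 191218039. Their matches and missing matches hold for these windows only. The core TGACG of the cAMP response element (CRE), the site bound by CREB and ATF factors, was present in 4 of the 8 promoters, those of Fos, Fosb, Junb and Atf3, against 17.8% of 32851 promoters of the same length. A TATAAA box was in the Fos promoter alone (12.4% of all promoters), and an EGR site, GCGNGGGCG, in the Fosb promoter alone (4.70% of all promoters). The full CRE, TGACGTCA, the AP-1 site, TGANTCA, and the CArG box of SRF were in none of the 8 windows, and were in 1.55%, 6.75% and 1.47% of all promoters. A match describes these letters only. The last 130 bases before the start are shown, 5′ to 3′ on the strand of the gene, for the 4 promoters with the CRE core, and capitals mark the motif matches.
Fos (chr12:85473760-85473889, plus strand): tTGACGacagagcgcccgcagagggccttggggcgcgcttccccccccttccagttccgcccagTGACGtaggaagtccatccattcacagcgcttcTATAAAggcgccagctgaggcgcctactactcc
Fosb (chr7:19310046-19310175, minus strand): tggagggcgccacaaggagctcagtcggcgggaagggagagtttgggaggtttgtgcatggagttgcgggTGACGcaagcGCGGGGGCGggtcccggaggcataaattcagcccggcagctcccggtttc
Junb (chr8:84978749-84978878, minus strand): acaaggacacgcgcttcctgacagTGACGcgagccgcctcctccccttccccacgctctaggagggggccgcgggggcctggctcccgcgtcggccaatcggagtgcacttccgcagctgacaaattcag
Atf3 (chr1:191183334-191183463, minus strand): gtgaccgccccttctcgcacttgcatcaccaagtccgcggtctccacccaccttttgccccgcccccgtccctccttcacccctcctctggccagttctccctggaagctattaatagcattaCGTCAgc
Counted from the RefSeq start, the 2 CRE cores of Fos began at positions -129 and -66 and its TATA box at -33. The core began at -60 in Fosb, beside its EGR site at -50, at -106 in Junb and at -7 in Atf3, and no match overlapped another.

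The tissue labels held, since the summed hepatocyte markers lay between 41560 and 67687 FPKM in control and between 42631 and 59325 FPKM in IH libraries. Control ZT12 replicate 2 stood apart in total FPKM (758113, against 540095 to 579428 in the other 35 libraries), in the sum of 8 Kupffer cell markers (192 FPKM, median of control 44.0) and in the sum of 8 leukocyte markers (206 FPKM, median of control 2.67), and every marker found in the files was above 0 somewhere. It, IH ZT0 replicate 2 and control ZT16 replicate 3 had Saa1, an acute phase gene, above 10000 FPKM. For the members, the level estimates at ZT12, the comparison of SDs and the median correlations are given with and without control ZT12 replicate 2. Other values include it unless stated. Relative depth, read from the steps between low values, ranged from 0.778 to 1.31 of the median library, while absolute depth is unknown. In whole liver, fewer cells of a type and less RNA per cell cannot be told apart.

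Jund was the most abundant member and Fosb the least. Over the 36 libraries the mean level was 27.3 FPKM for Jund, 14.2 for Ier2, 14.1 for Junb, 8.11 for Jun, 4.08 for Egr1, 1.23 for Klf6, 1.02 for Atf3, 0.721 for Fos, 0.712 for Ier3 and 0.0587 for Fosb. FPKM is per length, so levels can be set beside each other between genes. The neighbours Ier2 and Junb, Junb and Jun, Egr1 and Klf6, Klf6 and Atf3, and Fos and Ier3 were close. In each condition they differed by less than the larger of their SDs over 18 mice. Jun and Egr1, and Atf3 and Fos, did so in control only, where Fos (0.908 FPKM) stood above Atf3 (0.885 FPKM). The mean of Jund stood above those of 85.9% of the 13215 genes that reached 0.1 FPKM on average, and that of Fos above 21.4%. Fosb, a partner of Jun like Fos, fell under this minimum, so 9 of the 10 genes were tested. Its values were whole multiples of a common step in all 36 libraries, within a tolerance of 0.15, and read as fragments they ran from 0 in IH ZT16 replicate 1 to 88 in control ZT12 replicate 2. With the minimum removed, Fosb differed by +0.01 ± 0.02 (log2, SE) between IH and control over all time points (limma, adjusted p = 0.90).

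**Figure D1:**
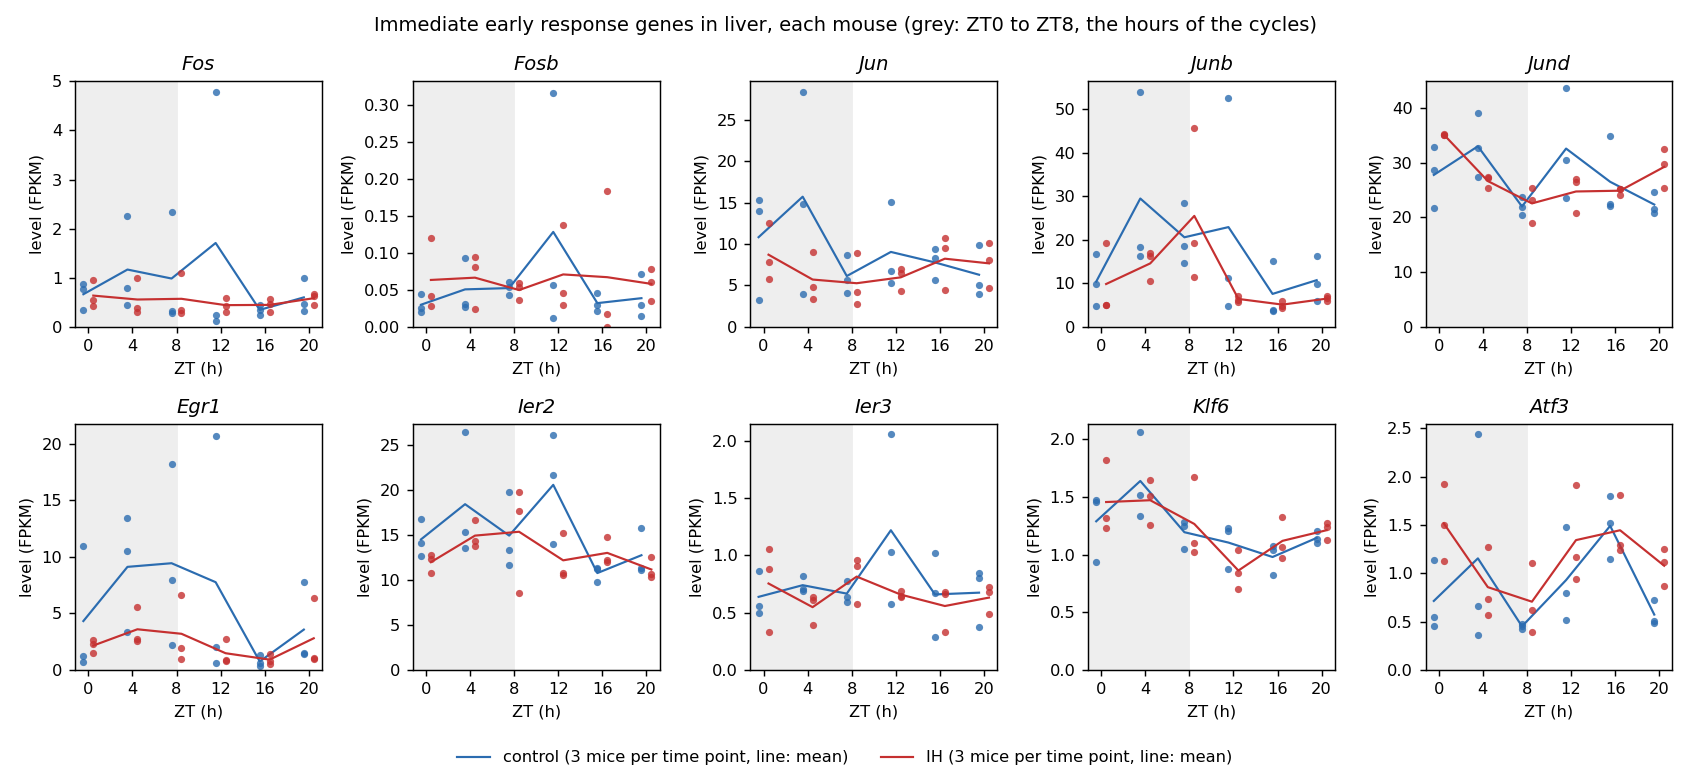
Level in FPKM (vertical axis, from 0) against ZT in hours for each of the 10 genes, with 1 point per mouse, control in blue and IH in red, and lines through the means of 3 mice. Single control mice at ZT4 and ZT12 lie far above the others in most panels, for example Fos at 4.78 FPKM at ZT12. At these time points the IH points stay closer together in most panels. At ZT8 they do not in several, for example Junb, from 11.4 to 45.6 FPKM in IH and from 14.5 to 28.5 in control.

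The question of the time course was whether these genes follow the day, and whether the daily bouts of hypoxia change that. A 24-h cosine passed nominal P ≤ 0.01 for 1 of 9 members in control, Klf6, and for 3 of 9 in IH, Jund, Junb and Klf6 (n = 18 libraries each). Over all 13215 genes the same rule called 20% in control and 39.9% in IH, so the members were called at about the rate of other genes or below it. The rhythms were not shown to differ between the conditions. In the test of the difference itself (limma, cosine by condition), 0 members and 0% of all genes passed an adjusted p of 0.05, and at an unadjusted p below 0.05 there were 0 members and 649 genes (4.91%). With the 6 time points as a factor, 18 genes and 0 members passed.

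Junb, an AP-1 subunit that often restrains Jun, had a daily pattern in IH with its peak in the light phase. In IH its level was 5.05, 19.3 and 5.01 FPKM in the 3 mice at ZT0, 16.2, 10.4 and 16.9 at ZT4, and 45.6, 19.3 and 11.4 at ZT8. It was then 7.11, 6.21 and 5.74 FPKM at ZT12, 4.78, 5.99 and 4.38 at ZT16 and 6.51, 6.92 and 5.84 at ZT20. All 6 IH mice of ZT4 and ZT8 were above all 9 IH mice of ZT12, ZT16 and ZT20, a split that leaves out ZT0. The cosine gave an amplitude of 0.86 on the log2 scale, a peak at ZT5.76 and P = 0.0013 (n = 18), and the call held without any of the 18 IH libraries (P from 7e-04 to 0.0035). In control Junb was 16.2, 53.9 and 18.2 FPKM at ZT4, 28.5, 14.5 and 18.6 at ZT8, and 3.61, 3.85 and 15.1 at ZT16. The control cosine had an amplitude of 0.81 and a peak at ZT6.22, close to those of IH, but with P = 0.034 (n = 18) it missed the limit. Without the 2 control libraries with Saa1 above 10000 FPKM it passed (n = 16, P = 0.0027). The 2 cosines of Junb did not differ beyond their errors (n = 36, P = 0.95).

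Jund, which is expressed in resting cells and is the least inducible Jun gene, was highest at lights on in IH. Its level was 35.1, 35.2 and 35.0 FPKM in the 3 IH mice at ZT0, and 25.4, 23.2 and 19.0 FPKM at ZT8, with no overlap between these time points. They had the highest and the lowest mean in IH. At ZT20 the IH mice had 29.8, 32.5 and 25.3 FPKM. The IH cosine peaked at ZT22.8 with an amplitude of 0.25 (log2) and P = 4.4e-04 (n = 18). Control mice had 21.8, 28.6 and 32.9 FPKM at ZT0 and 24.6, 21.6 and 20.8 at ZT20, and their cosine gave an amplitude of 0.09 and P = 0.72 (n = 18). The difference between the cosines had P = 0.059 over n = 36 libraries (adjusted p = 0.92), the smallest of the 9 members. The IH call was lost (P = 0.020, n = 36) where both conditions shared 1 estimate of the spread.

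Klf6, a zinc finger factor of stellate cells and hepatocytes, was the member called in both conditions, with small swings. In IH it was 1.31, 1.82 and 1.23 FPKM at ZT0, 1.51, 1.65 and 1.26 at ZT4, and 0.702, 1.04 and 0.840 at ZT12. In control it was 1.52, 2.06 and 1.34 FPKM at ZT4, and 0.820, 1.04 and 1.07 at ZT16. The morning values were above the evening or night values in every mouse of these time points, which include the highest and lowest means of each condition. The cosine peaked at ZT3.42 in control (amplitude 0.16 on the log2 scale, P = 0.0096) and at ZT1.56 in IH (0.18, P = 0.0044), with n = 18 each. The control call lay at the limit and was lost in 14 of 18 fits that left out 1 control library (P up to 0.032) and in 7 of 12 other settings. The IH call was lost in 4 of 18 and 4 of 12 such fits, among them without the IH library with high Saa1 (n = 17, P = 0.013).

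No cosine was called for Fos, Jun, Egr1, Ier2, Ier3 or Atf3 in either condition. For Egr1, a zinc finger factor induced through SRF, the control amplitude of 1.02 was the largest of the 9 (P = 0.041), and the IH amplitude was 0.52 (P = 0.060), with n = 18 each. In IH the cosine of Egr1 passed without IH ZT20 replicate 3 (n = 17, P = 0.0043), whose 6.39 FPKM stood against 1.04 and 0.942 in the other mice of that time point. Ier2 in IH likewise passed without IH ZT8 replicate 3 (n = 17, P = 0.0092, against 0.21 with it). For Fos, the control time course from a mean of 1.71 ± 2.66 FPKM (SD, n = 3) at ZT12 to 0.341 ± 0.104 at ZT16 was within the spread of ZT12. The control cosine of Fos had P = 0.52 (n = 18), and its IH means lay between 0.437 and 0.632 FPKM.

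The comparison of levels asked whether IH moved these genes, over the day or at ZT4 and ZT8, within and at the end of the daily cycles. Whether the cycles still ran when the ZT8 mice were sampled is not given in the sources used here. In no comparison did limma call a member at an adjusted p below 0.05. Over all time points 47 genes (0.356%) were called, and at ZT4 and ZT8 together 1054 (7.98%), of which 799 (6.05%) were higher and 255 (1.93%) lower in IH. At single time points the share was 0% at ZT0, 1.16% at ZT4 (0.885% higher and 0.272% lower), 0.00757% at ZT8, 0.772% at ZT12, 0.00757% at ZT16 and 0% at ZT20. At ZT0 and ZT20, where no gene was called, 1000 and 627 genes had an unadjusted p below 0.05. Leaving out any of the 6 ZT4 libraries lowered the 153 genes called at ZT4 to between 22 and 93, and leaving out control ZT12 replicate 2 raised them to 797. The split at ZT4 and ZT8 was 460 higher and 460 lower under median ratio scaling. Of the 9 members, 1 had an unadjusted p below 0.05 over all time points, 1 at ZT4 and ZT8, 1 at ZT0, 1 at ZT12 and 1 at ZT20, against 10.8%, 27.1%, 7.57%, 24.6% and 4.74% of all genes. Estimates are on the log2(FPKM + 1) scale, which understates the change of genes with low levels. By range, the 3 IH and the 3 control mice of a time point did not overlap in 5 of 54 cases (9.26%), against 17.7% over all genes.

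**Figure D2:**
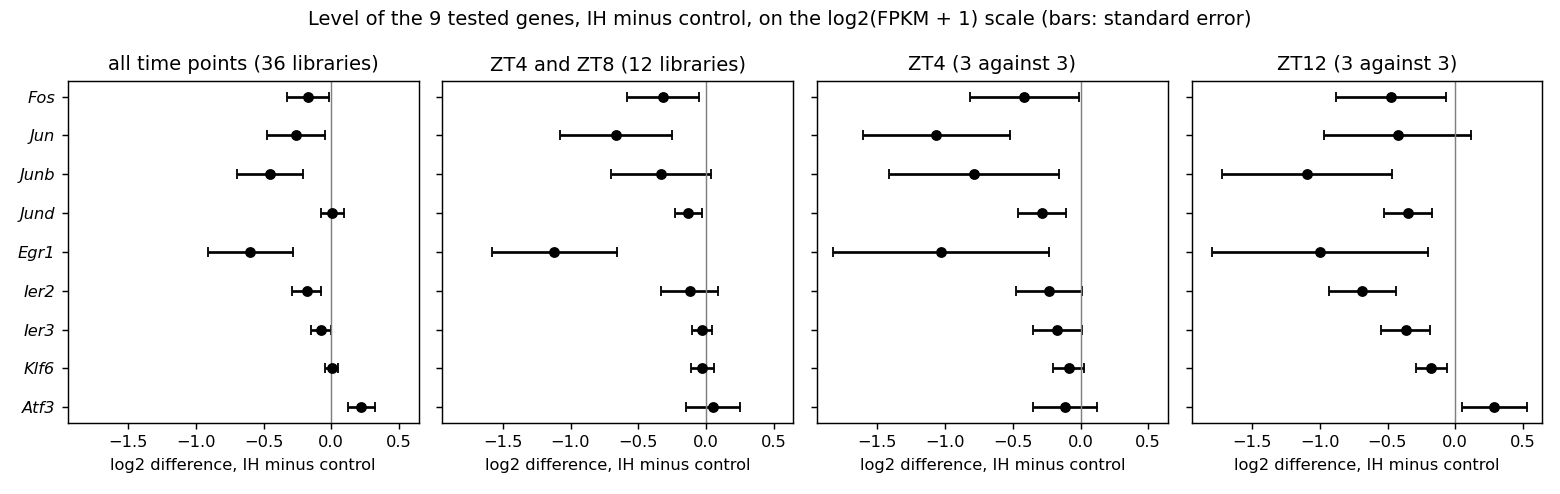
Difference in level, IH minus control, on the log2(FPKM + 1) scale (horizontal axis) for the 9 tested genes (vertical axis) in 4 comparisons, with bars for the standard error. At ZT4 all 9 points lie below 0, from -0.09 to -1.07, and over all time points Atf3 is the highest, at +0.22.

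Egr1 had the largest estimate over ZT4 and ZT8 together, while at ZT4 alone that of Jun was slightly larger (-1.07 against -1.03). At ZT4 it was 13.4, 10.5 and 3.36 FPKM in control and 5.52, 2.70 and 2.53 FPKM in IH. At ZT8 it was 18.2, 2.15 and 7.96 FPKM in control and 6.66, 1.96 and 0.938 FPKM in IH. The groups overlapped at both time points. Over these libraries (n = 12) the difference was -1.12 ± 0.46 (log2, SE), with p = 0.032 and adjusted p = 0.15, and over all time points it was -0.60 ± 0.31 (adjusted p = 0.49).

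Jun and Fos varied widely among the control mice at ZT4. Jun, the main partner of Fos, was 3.91, 28.5 and 14.8 FPKM in control and 8.99, 4.78 and 3.33 FPKM in IH. Fos was 0.447, 2.27 and 0.778 FPKM in control against 0.985, 0.370 and 0.303 FPKM in IH. In both genes the control mice reached from below the highest IH mouse to far above it. All 9 estimates at ZT4 were below 0, with a median of -0.29 against +0.07 over all genes, and none passed (smallest adjusted p = 0.33). The members moved together between mice of a group (median Pearson r 0.54 over member pairs), so their signs are not separate observations. Without control ZT4 replicate 2, the highest library for Jun, Junb, Ier2, Klf6 and Atf3, 6 of 9 were below 0 and the median was -0.14. With any other single ZT4 library left out, 8 or 9 were below 0. Their medians ran from -0.25 to -0.41, and again no member was called. At ZT4 all 8 Kupffer cell markers were also below 0 (median -0.40) and 6 of 7 hepatocyte markers above 0 (median +0.28), none called, and their part in the result was not tested. At ZT8 the members were split, 5 above and 4 below 0.

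At ZT12, 8 of 9 estimates were below 0, all but Atf3, with a median of -0.43 against +0.03 over all genes. As at ZT4, their signs are not separate observations. Ier2 had the smallest p of the members in any level comparison, with 21.7, 26.2 and 14.0 FPKM in control and 15.2, 10.6 and 10.8 FPKM in IH, which overlapped. Its difference was -0.69 ± 0.25 (log2, SE, limma, adjusted p = 0.10), and -0.50 ± 0.27 (adjusted p = 0.42) without control ZT12 replicate 2. Control ZT12 replicate 2 held the highest value of its group for all 9 members, with Fos at 4.78 FPKM against 0.234 and 0.107, Junb at 52.5 against 11.3 and 4.83, and Egr1 at 20.7 against 1.98 and 0.566. Without it 6 of 9 estimates were below 0, their median was -0.11 and no gene of 13215 was called. With it kept but control ZT12 replicate 3 left out, 4 members were called, Ier2 (-0.93, adjusted p = 0.013), Ier3 (-0.59, 0.021), Jund (-0.55, 0.029) and Junb (-1.80, 0.042), among 3124 genes in all. The 102 genes called with all libraries fell to 1 with the replicate number as a block, and to 1 or 0 without IH ZT12 replicate 2 or 3. Kupffer and leukocyte markers moved with this library too (192 and 206 FPKM), and their part in the result was not tested.

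Atf3, a stress-induced repressor, had the largest positive estimate in IH over all time points. At ZT0 it was 1.92, 1.5 and 1.13 FPKM in IH and 0.548, 1.13 and 0.457 FPKM in control. At ZT20 it was 1.25, 1.11 and 0.866 FPKM in IH and 0.726, 0.486 and 0.503 FPKM in control, with no overlap. Over all time points the difference was +0.22 ± 0.10 (log2, SE, n = 36, p = 0.030, adjusted p = 0.40), and at ZT0 it was +0.56 ± 0.24 (adjusted p = 0.58). With a pseudocount of 0.1 these were +0.46 (adjusted p = 0.34) and +1.05 (adjusted p = 0.60). Jund also did not overlap at ZT20 and ZT0, with a difference of +0.37 ± 0.18 at ZT20 (adjusted p = 1). The remaining cases without overlap were Ier2 at ZT16 (higher in IH) and Ier3 at ZT4 (lower in IH).

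The members differed more from mouse to mouse than most genes did. The SD between mice of the same condition and time point, on the log2(FPKM + 1) scale, was 1.30 in control and 0.70 in IH for Egr1, 0.99 and 0.60 for Junb, 0.83 and 0.56 for Jun, and 0.70 and 0.25 for Fos. The median over all genes was 0.16 in control and 0.11 in IH. The SD of Egr1 was above that of 99.6% of genes in control and 99.2% in IH, whereas Klf6 lay above 40% and 70.8%. For 8 of 9 members, all but Klf6, the SD was larger in control, as it was for 76.2% of all genes. Without control ZT12 replicate 2 this was still true of 8 members, and of 54.3% of all genes. Control ZT4 replicate 2, the highest library for Jun, Junb, Ier2, Klf6 and Atf3, was kept there. The ratio of control to IH was then 1.85 for Fos, 1.76 for Jund, 1.53 for Egr1, 1.46 for Jun, 1.40 for Atf3, 1.34 for Junb, 1.13 for Ier3, 1.11 for Ier2 and 0.97 for Klf6, against 1.03 for the median gene. The members moved together between mice of a group, so the 8 of 9 are not separate observations. These SDs pool the time points and describe the libraries, and the difference between conditions was not tested.

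**Figure D3:**
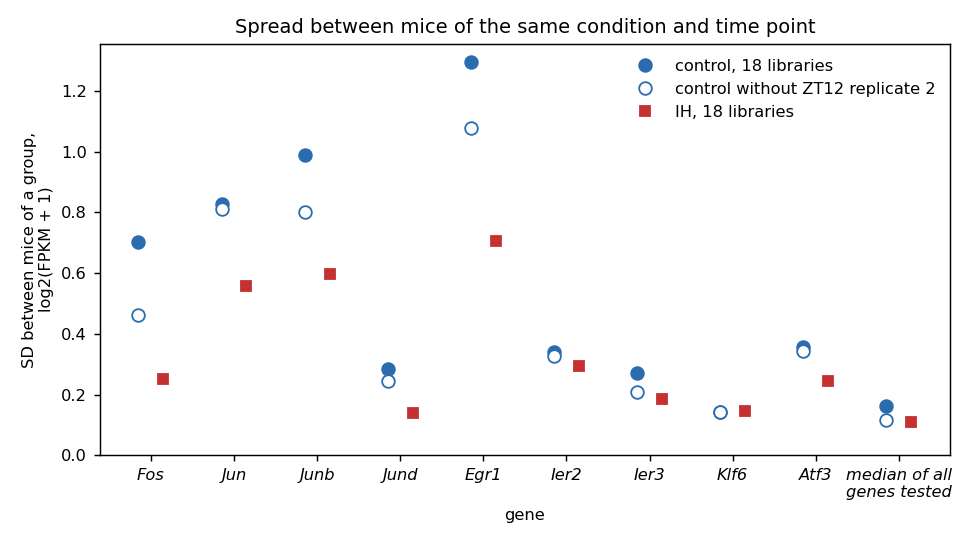
SD between mice of a group on the log2(FPKM + 1) scale (vertical axis, from 0) for the 9 tested genes and the median of all genes, with control as filled circles, control without ZT12 replicate 2 as open circles and IH as squares. The filled circles lie above the squares for every gene but Klf6, and for Fos the open circle (0.46) still lies above the square (0.25).

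Where a mouse stood high in one member, it tended to stand high in the others. As deviations from the means of the 12 groups, all 36 pairs of the 9 members correlated above 0 over the 36 libraries, with a median Pearson r of 0.54. Over all 87311505 pairs of tested genes the median was 0.08, 58.8% were above 0 and 10.4% were above the median of the members. The median over member pairs was 0.47 without control ZT12 replicate 2, 0.44 in the 18 IH libraries and 0.58 in the 18 control libraries. In control without ZT12 replicate 2 it was 0.48, and 33 of 36 pairs were above 0. The highest pair was Fos and Junb, with r = 0.79 and Spearman rho = 0.76 (permutation within groups, 2-sided p = 2e-05 and 5e-05). Without the 2 libraries farthest from the median of Fos, control ZT8 replicate 1 and control ZT12 replicate 2, r was 0.76. The lowest pair was Jun and Egr1, with r = 0.18 and rho = 0.25 (permutation p = 0.45 and 0.25). Adjusted over the 36 pairs, 24 passed 0.05 by r and 23 by rho, and all 36 stayed above 0 without the 2 libraries farthest from the median of either gene (lowest r 0.098, median 0.44).

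**Figure D4:**
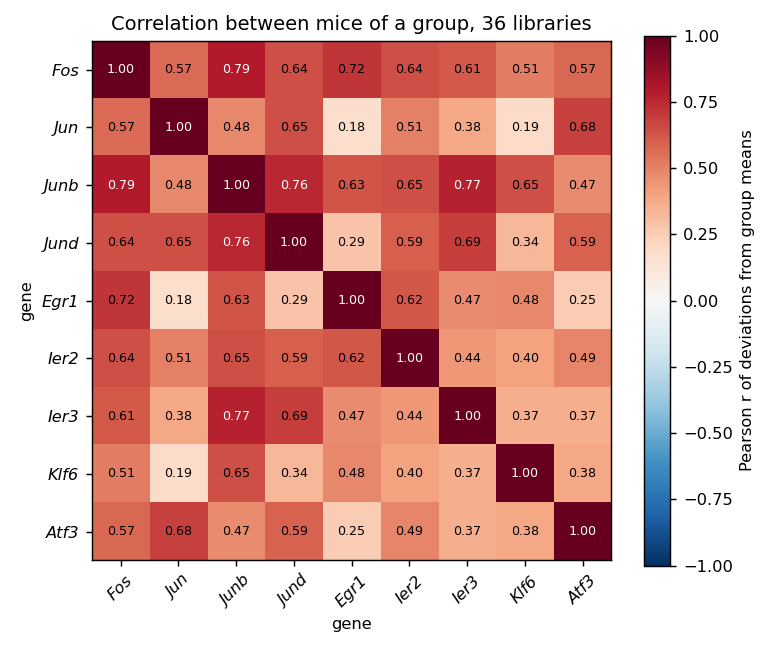
Pearson r between each pair of the 9 tested genes, computed over 36 libraries on deviations from the group means, with genes on both axes and r as colour and number. Every cell is above 0, from 0.18 for Jun with Egr1 to 0.79 for Fos with Junb.

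The common level, the mean of the 9 members after each was standardised over the 36 libraries, singled out a few mice. It was 2.18 SD units in control ZT12 replicate 2 and 2.05 in control ZT4 replicate 2, and next 0.88 in IH ZT8 replicate 1, 0.69 in control ZT8 replicate 1 and 0.69 in IH ZT0 replicate 2. The first of these had the highest value of all libraries for Fos, Fosb, Jund, Egr1 and Ier3, and the second for Jun, Junb, Ier2, Klf6 and Atf3. Saa1 was 20546 FPKM in control ZT12 replicate 2 and 57.4 FPKM in control ZT4 replicate 2. The lowest common level, -1.01, was in IH ZT8 replicate 3, from the same group as the highest IH library. By group the mean ran from -0.42 ± 0.32 (SD, n = 3) in IH at ZT12 to 0.85 ± 1.05 in control at ZT4. The SD was larger in IH at ZT0 (0.47 against 0.32 in control) and ZT8 (0.95 against 0.64). It was larger in control at ZT4 (1.05 against 0.42 in IH), ZT12 (1.48 against 0.32), ZT16 (0.59 against 0.15) and ZT20 (0.57 against 0.05).

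**Figure D5:**
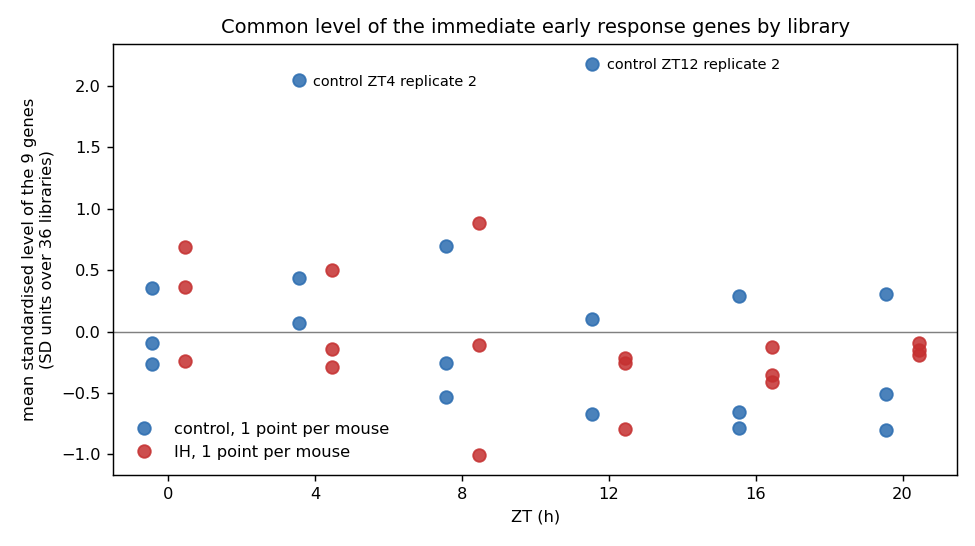
Mean standardised level of the 9 tested genes (vertical axis, SD units over 36 libraries) against ZT in hours, with 1 point per mouse, control in blue and IH in red. Control ZT12 replicate 2 (2.18) and control ZT4 replicate 2 (2.05) stand above the other 34 libraries, which lie between -1.01 and 0.88.

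The 5 genes outside the group whose level was most like this common level over the 36 libraries were Socs3 (Pearson r = 0.75), Btg2 (0.74), Krt18 (0.73), Nfkbiz (0.72) and Psmc3 (0.71). Socs3 is a feedback inhibitor of cytokine signalling, Btg2 an antiproliferative immediate early gene, Krt18 a keratin of hepatocytes, Nfkbiz a nuclear IκB protein and Psmc3 a proteasome subunit. Without control ZT12 replicate 2 the values were 0.79, 0.72, 0.66, 0.58 and 0.56. These points share libraries with the members, and the genes were picked as the highest of all tested genes.

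Among 30 other immediate early genes, 24 were tested, and some did pass where the members did not. At ZT4 and ZT8, 3 were higher and 1 lower in IH, where 7.98% of all genes were called. The median difference there was +0.03 against +0.04 over all genes. At ZT4 alone 1 was higher and 1 lower, where 1.16% of all genes were called. Klf10, a TGF-β inducible zinc finger gene, was 25.6 ± 10.3 FPKM in IH and 6.97 ± 3.32 in control at ZT4 (SD, n = 3), a difference of +1.77 ± 0.39 (log2, SE, limma, adjusted p = 0.023). It did not pass without IH ZT4 replicate 1, IH ZT4 replicate 2 or control ZT4 replicate 1. Klf4 rose by 0.22 (adjusted p = 0.024, and by 0.64 with a pseudocount of 0.1) and Ctgf by 0.45 (adjusted p = 0.047) at ZT4 and ZT8, and Crem, which encodes CRE modulators and the repressor ICER, fell by 0.41 (adjusted p = 0.042). The level of Klf4 was low, with means of 0.48 FPKM in IH and 0.25 in control at ZT4. Of the 12 fits without 1 library, the call at ZT4 and ZT8 was lost in 3 for Klf4 and in 10 each for Klf10, Ctgf and Crem. Btg2 was 2.17 ± 0.65 FPKM in IH and 11.2 ± 6.23 FPKM in control at ZT4, a difference of -1.82 (adjusted p = 0.049) that did not pass in 26 of 36 fits without 1 library. A 24-h cosine was called for 7 of the 24 in control, led by the clock gene Per1, Maff, Btg1, Ctgf, Crem and Klf10, and for 8 in IH, led by Klf10, Maff, Ier5, Crem, Btg1 and Per1. Of all genes, 20% were called in control and 39.9% in IH. The amplitude of Klf10 was 0.71 in control (P = 0.0066) and 1.31 in IH (P = 8.5e-06), with n = 18 each. In the test of the difference in rhythm, 0 of the 24 genes passed (limma, smallest adjusted p = 0.92).

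Of the genes around the response, 1 passed a level comparison. None of 14 tested feedback inhibitors, such as the dual-specificity phosphatases and Zfp36 mRNA-decay factors, passed a level comparison (at most 1 at an unadjusted p below 0.05), and a cosine was called for 2 in control (Zfp36l1 and Dusp4) and 5 in IH (Dusp5, Dusp16, Spry4, Zfp36l1 and Dusp8). Of 13 CREB, SRF and ternary complex factors, 0 passed a level comparison (at most 4 unadjusted, at ZT12, where 24.6% of all genes had such a p), while the cosine was called for 3 in control (Mkl2, Crtc3 and Mkl1) and 7 in IH, led by Atf1, Crtc3, Atf2, Creb1, Elk3 and Crtc2. Of 19 MAP kinases and related kinases, Map2k6, an activator of p38, was higher in IH at ZT4 and ZT8 (+0.69 ± 0.11, adjusted p = 0.0097), with or without any of the 12 libraries. The cosine was called for 4 of them in control (Rps6ka3, Prkaca, Mapk14 and Map2k2) and 11 in IH, led by Mapk14, Prkaca, Map2k3, Map2k7, Map2k6 and Prkacb. Of 11 other AP-1 partners, 0 passed a level comparison (at most 2 unadjusted in any), and the cosine was called for 2 in control and 3 in IH, with Atf5 at the smallest P in both (6.5e-11 and 1.2e-11). These shares stand against the 20% and 39.9% of all genes given above.

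Acute phase genes, which share inducers with this group, were not called between the conditions either. Their sum ranged from 2018 to 65524 FPKM in control and from 2032 to 64312 FPKM in IH, and all 8 estimates at ZT4 were below 0 (median -1.82, smallest adjusted p = 0.42). At ZT12 7 of 8 were below 0 (median -0.71). All 8 were also below 0 at ZT16 (median -1.99) and above 0 at ZT0 (median +0.80), where the members were split, 5 above and 4 below 0 at ZT16 and 4 above and 5 below at ZT0. Single mice stood out at both. Saa1 was 22865 FPKM in IH ZT0 replicate 2, 111 and 79.7 in the other IH mice, and 49.8, 382 and 1235 in control. Control ZT16 replicate 3 had 12912 FPKM, against 43.8 and 46.1 in the other control mice. The IH mice at ZT16 had 79.6, 88.1 and 56.0 FPKM. The part of the acute phase genes in the estimates of the members was not tested.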

How the data were processed

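Poly(A) RNA of 36 livers was sequenced as stranded libraries, and the authors aligned reads to mm10 with TopHat2 2.1.1 and deposited FPKM values per gene from Cufflinks 2.2.1. The depositors' tables hold 24883 rows each, from which 280 symbols on more than 1 row were left out. Columns were matched to samples by time point and replicate, and each table to its condition by the name of the table and, by eye, by the profiles the study shows, since its columns carry none, so every direction between IH and control rests on that match. Here log2(FPKM + 1) was fitted with limma 3.58.1 in R 4.3.3 (trended prior) for 13215 genes averaging 0.1 FPKM or more over 36 libraries. Rhythm was a 24-h cosine in the 18 libraries of a condition (n = 18, nominal P ≤ 0.01), its difference a cosine by condition term, and level a condition term with time point (all, or ZT4 and ZT8) or a contrast of group means, with Benjamini-Hochberg adjusted p below 0.05 over all genes. Pairs of members were permuted 100000 times. Scripts were tested on simulated data. Figures used matplotlib 3.10.9.

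Besides the 10 members, the genes named were those called, up to 6 per list by P, and the 5 most alike. Members and lists were chosen with earlier results of these data known. Without fragment counts, precision rests on 3 mice per group, and p-values cover the spread between these samples.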

Additional observations from a re-analysis of the deposited data

How the results depend on the processing

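Precision rests on 3 mice per group, and levels near 0, Fosb above all, are limited by depth. The number of members called was identical in every alternative for 8 of 11 results. In the control rhythm, where Klf6 was called, it was 0 with a pseudocount of 0.1, no minimum, a mean minimum of 1 FPKM, median ratio scaling, quantile normalization, the replicate block and the F test over time points, 2 without the libraries with high Saa1 and with a shared spread, and 0 to 1 when 1 library was left out. In the IH rhythm it was 2 or 3, and 2 to 4 when 1 library was left out. At ZT12 it was 1 at nominal P below 0.01 and 0 to 4 when 1 library was left out, with 4 only without control ZT12 replicate 3. A mean minimum of 1 FPKM gave no value for Fos, Ier3, Klf4, Rps6ka3, Dusp4, Dusp5 or Dusp8.

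The labels do not say that a replicate number pairs mice. The mean r of deviations was 0.054 over 18 same-numbered pairs, 6 of them above 0.1, but at ZT12 all 3 were (0.29, 0.27 and 0.14). With the replicate block the control rhythm of Klf6, Klf10 and Mkl1, Klf10 at ZT4 and ZT8 and Btg2 at ZT4 were no longer called, which left 0 members in the control rhythm, and 1 gene in place of 102 was called at ZT12. The block changed no other call of a named gene.

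Over all time points the direction turned for Jund under median ratio scaling (-0.036) and quantile normalization (-0.022), and for Klf6 under the same settings (-0.024 and -0.022) and without the libraries with high Saa1 (-0.0015). Both differences were under 0.01 as reported, and with 1 library left out they ran from -0.024 to 0.053 for Jund and from -0.017 to 0.021 for Klf6. At ZT4 and ZT8 such fits turned Atf3 (-0.052 to 0.25), Ier2 (-0.23 to 0.022), Ier3 (-0.069 to 0.023) and Klf6 (-0.089 to 0.031). None of these was called.

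Counts over all genes moved more. With 1 library left out they ran from 28 to 157 over all time points, 231 to 1344 at ZT4 and ZT8, 22 to 797 at ZT4 and 0 to 3124 at ZT12. At ZT4 there were 153 calls, 1334 without the libraries with high Saa1, 729 with that time point's 6 libraries alone and 50 with a common FPKM sum. At ZT12 there were 102, 217 with median ratio scaling, 214 with quantile normalization, 25 with no minimum, 1 with a common FPKM sum, 1 with the block, and 0 without the high-Saa1 libraries or with the 6 libraries alone. Over all time points there were 47, 27 with a common FPKM sum and 183 without the high-Saa1 libraries, and at ZT4 and ZT8 614 in place of 1054 with no minimum. At nominal P below 0.01 there were 442 over all time points, 1636 at ZT4 and ZT8, 843 at ZT4 and 1269 at ZT12. Median ratio scaling split the calls into 72 higher and 82 lower at ZT4 (117 and 36 as reported) and 103 and 114 at ZT12 (36 and 66), and the common sum moved the median of all genes at ZT12 from 0.03 to 0.11. The causes were not tested.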
